A study of Homo sapiens with 36 samples.

Results

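KLK2, KLK3, KLK4 and KLK15, a set of neighbouring kallikrein genes of human chromosome 19, were described across the 12 groups of an RNA sequencing experiment in LNCaP prostate cancer cells. The rule for the set uses gene family, position and known androgen regulation, and no measured value. The set was nevertheless chosen with earlier results of these data known. Its rows were found by matching the Ensembl identifiers of the table to symbols in GENCODE release 44. All 4 symbols were found among the 29872 genes of the table (KLK2, ENSG00000167751; KLK3, ENSG00000142515; KLK4, ENSG00000167749; KLK15, ENSG00000174562). All 4 genes also passed the filter on low values at both time points, so no member is missing from the tests.

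LNCaP is an established, androgen-sensitive human prostate cancer cell line. The cells received vehicle, AU2-94 at 1 or 2 µM, atirmociclib at 1 or 2 µM, or ribociclib at 2 µM, and each of these 6 arms was harvested at 24 h and at 72 h in 3 biological replicates, which gave 36 libraries. AU2-94 and atirmociclib are inhibitors selective for the cell cycle kinase CDK4, and ribociclib inhibits both CDK4 and CDK6. The labels give the vehicle libraries a dose of 2 µM as well and number the replicates of each group. They name no genetic change in any group, so all 36 libraries share the unmodified line. Cells for the 72 h harvest were plated at a lower density than those for 24 h, so time and plating density cannot be told apart. In bulk RNA, fewer cells of a kind and less RNA per cell cannot be told apart.

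Kallikreins are secreted serine proteases made as inactive precursors. KLK3 encodes prostate-specific antigen, which cleaves the semenogelins of the seminal clot and is the serum marker of prostate disease. KLK2 encodes a trypsin-like relative that can activate the KLK3 precursor, KLK15 encodes a protease also described as able to do so in vitro, and KLK4 encodes a trypsin-like protease best known for its part in tooth enamel formation. In the luminal cells of the prostate androgens raise the transcription of these genes through enhancers and promoters, and KLK3 and KLK2 are classic androgen-induced genes.

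The 4 genes lie within 86107 bases in GRCh38. KLK15 occupies chr19:50825289-50837213 on the minus strand, KLK3 chr19:50854915-50860764 and KLK2 chr19:50861568-50880567 on the plus strand, and KLK4 chr19:50906351-50911395 on the minus strand. All 4 are annotated as protein-coding, and no exon of any member overlapped an exon of another gene. The canonical transcripts have 5 exons in KLK3 and KLK2 and 6 in KLK4 and KLK15. KLK2 and KLK3 were the most alike of these transcripts, with a longest identical run of 60 bases and no shared stretch as long as the 100-base reads. Because read pairs could still share parts, an exchange of reads between KLK2 and KLK3 cannot be measured from the table, and how the gene counter treated such reads is not given in the sources used here.

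The 250 bases before each start site are printed from the RefSeq promoter table (GRCh38.p14), 5′ to 3′ on the strand of the gene, because they show how the members differ in a region known for androgen control. The androgen response element was searched on both strands as the half-sites AGAACA and TGTTCT with 3 free bases between them, and capitals mark the best match where it had at most 3 mismatches in the 12 fixed bases. The windows are chr19:50854665-50854914 for KLK3, chr19:50873189-50873438 for KLK2, chr19:50911396-50911645 for KLK4 and chr19:50833575-50833824 for KLK15.
KLK3: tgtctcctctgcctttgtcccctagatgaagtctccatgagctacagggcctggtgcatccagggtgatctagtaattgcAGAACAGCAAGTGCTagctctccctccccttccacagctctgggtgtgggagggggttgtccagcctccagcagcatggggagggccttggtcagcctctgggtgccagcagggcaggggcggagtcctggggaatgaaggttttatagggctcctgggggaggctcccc
KLK2: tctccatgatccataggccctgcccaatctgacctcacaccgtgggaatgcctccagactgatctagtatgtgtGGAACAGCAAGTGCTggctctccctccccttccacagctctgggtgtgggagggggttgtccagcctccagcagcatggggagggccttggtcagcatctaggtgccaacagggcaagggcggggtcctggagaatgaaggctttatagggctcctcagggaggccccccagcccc
KLK4: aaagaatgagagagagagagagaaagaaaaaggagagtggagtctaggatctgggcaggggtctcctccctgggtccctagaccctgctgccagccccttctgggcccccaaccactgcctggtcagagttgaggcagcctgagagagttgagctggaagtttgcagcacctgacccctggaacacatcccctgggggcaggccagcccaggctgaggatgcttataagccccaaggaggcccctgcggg
KLK15: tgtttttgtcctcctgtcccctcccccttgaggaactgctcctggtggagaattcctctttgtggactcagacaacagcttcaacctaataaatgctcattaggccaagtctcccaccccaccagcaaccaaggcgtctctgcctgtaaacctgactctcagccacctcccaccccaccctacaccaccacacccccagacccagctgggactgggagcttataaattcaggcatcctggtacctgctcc
The KLK3 window holds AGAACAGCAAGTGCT from -170 to -156 relative to the start site, which differs from the searched motif at 2 bases (T10A and T13G, motif base first, positions counted from 1 at the 5′ end of the motif). KLK2 holds GGAACAGCAAGTGCT from -176 to -162, with A1G, T10A and T13G. Of the 34786 promoter windows in the table, 1.19% held a match with at most 2 mismatches, 9.2% one with at most 3, and 12.4% the first half-site alone on either strand. The best matches of KLK4 and KLK15 had 5 mismatches, a level that 85.5% of the windows reached, so nothing is in capitals there. The 14 bases GAACAGCAAGTGCT occurred in 2 windows of the table, those of KLK3 and KLK2. These 2 windows were 82.0% identical over 250 bases after alignment, with a run of 80 identical bases, whereas the other pairs of members were 50.4% to 54.4% identical. A match in these letters is a description and not a measured binding site, and enhancers outside the windows were not searched.

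Values below are normalised counts, which are read counts that the authors scaled between libraries, and fold changes are differences of log2(normalised count + 1) between group means. A gene passed the test where its adjusted p was at most 0.05 (limma across all genes, Benjamini-Hochberg adjustment). Library totals ranged from 20675156 to 22692555 normalised counts, and the 4 genes together took 0.113% to 0.287% of a library. KLK3 was the 26th most abundant gene of the table by mean normalised count, KLK2 the 677th, KLK4 the 1269th and KLK15 the 11644th. Per kilobase of canonical transcript, KLK3 in vehicle cells at 24 h stood 14.4 times above KLK2, 8.77 times above KLK4 and 407 times above KLK15.

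Markers of prostate luminal cells were present in every library, with a summed level of 8 genes, KRT8 and TMPRSS2 among them, from 73323 to 115906 normalised counts. That sum was higher in all treated libraries (101055 to 110597 at 24 h, 95489 to 115906 at 72 h) than in vehicle (73323 to 75187 and 75363 to 77834), and TMPRSS2 is described below. Basal markers summed to 4.73 to 25.9 in vehicle and 23.2 to 88.6 in treated libraries, nearly all of it KRT14, with the basal keratin KRT5 at or under 3 everywhere. Neuroendocrine markers summed to 99.9 to 258 in vehicle and 105 to 1295 in treated libraries, nearly all of it ENO2, with CHGA and INSM1 at or under 3 in every library. Fibroblast markers, nearly all COL1A1, summed to 391 to 512 in vehicle and 199.5 to 405 in treated libraries at 24 h, and to 495 to 642 and 496 to 645 at 72 h. Leukocyte markers summed to 0 to 1.73 in vehicle and 0 to 7.56 in treated libraries. What part these sums have in the kallikrein values was not tested.

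KLK3, the gene of prostate-specific antigen, was higher in every treated group at both times, and the difference was larger at 72 h. At 24 h vehicle libraries held 23132, 24802 and 22731 normalised counts. AU2-94 gave 27722, 29772 and 29882 at 1 µM and 29519, 32036 and 31369.5 at 2 µM. Atirmociclib gave 32583, 31526 and 32629.6 at 1 µM and 32870.4, 30665 and 27660.1 at 2 µM, and ribociclib at 2 µM gave 29962, 28771 and 30541. All 15 treated libraries lay above the highest vehicle library, with the lowest of them, 27660.1, in the third atirmociclib 2 µM replicate. At 72 h vehicle libraries held 20972, 20799 and 19802 normalised counts. AU2-94 gave 48236, 46629.7 and 47444 at 1 µM and 42554, 47315 and 45775 at 2 µM. Atirmociclib gave 51497, 53405 and 55194 at 1 µM and 48388, 52456 and 54148 at 2 µM, and ribociclib at 2 µM gave 47194, 48315 and 51463. Here the lowest treated library, at 42554, stood far above the highest vehicle library, at 20972. The log2 fold change against vehicle lay between 0.31 and 0.45 at 24 h, with a standard error of 0.052, and between 1.14 and 1.38 at 72 h, with a standard error of 0.046. With the 5 treatments pooled it was 0.37 ± 0.041 (SE, adjusted p = 7.08e-07) at 24 h and 1.26 ± 0.036 (SE, adjusted p = 7.39e-15) at 72 h, which is 1.29-fold and 2.40-fold.

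**Figure D1:**
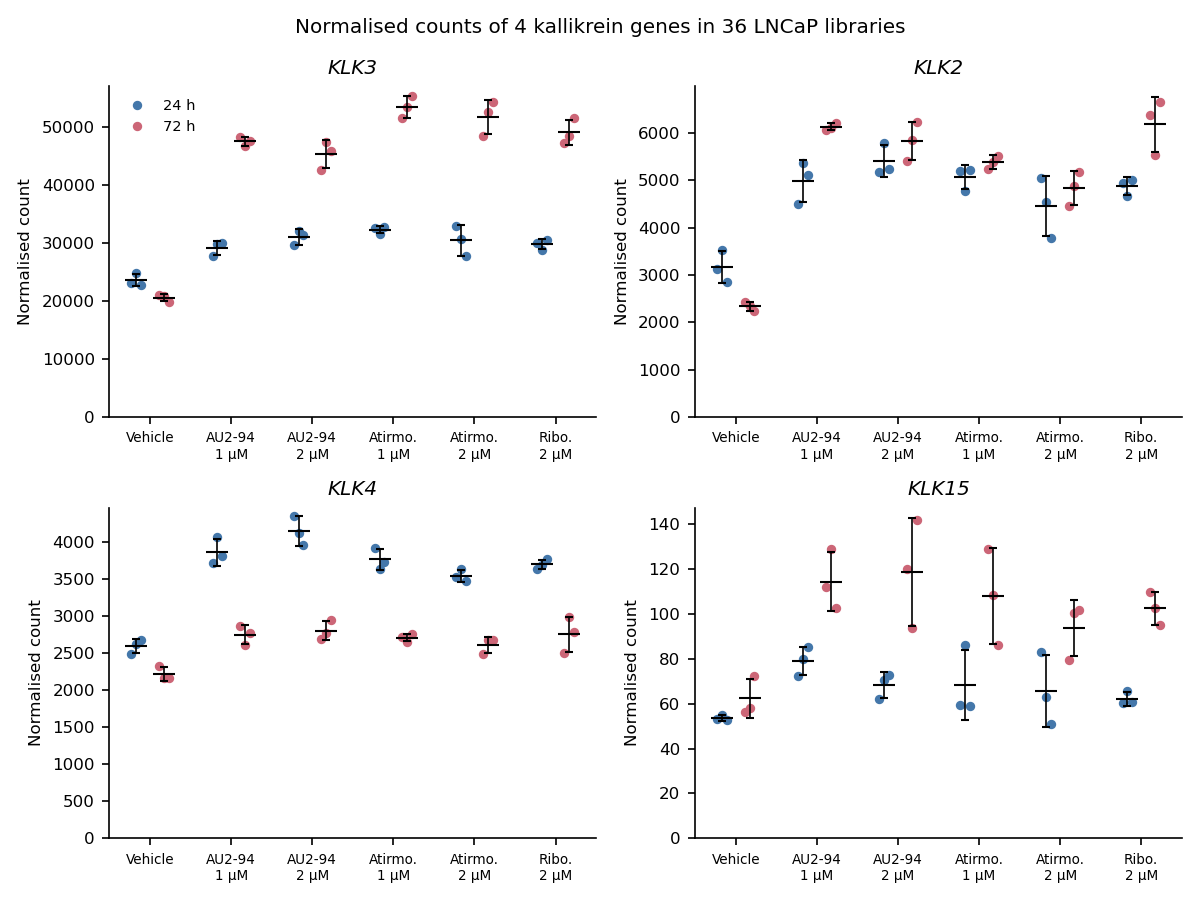
Normalised counts (linear axes from 0) of the 4 genes in the 6 arms at 24 h (blue) and 72 h (red), where each point is a library and black bars give the mean ± SD of 3. KLK3 and KLK2 were highest at 72 h, KLK4 was highest at 24 h, and treated libraries lay above vehicle in all panels except for 1 KLK15 library at 24 h.

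KLK2 followed the same direction. Vehicle libraries held 3126, 3529.9 and 2859 normalised counts at 24 h. AU2-94 gave 4500.0, 5372 and 5103 at 1 µM and 5182, 5799 and 5240.5 at 2 µM. Atirmociclib gave 5202, 4772 and 5220.5 at 1 µM and 5048, 4537 and 3777 at 2 µM, and ribociclib at 2 µM gave 4952, 4664 and 5016. No treated library fell into the vehicle range, although the third atirmociclib 2 µM library, at 3777, came closest to the highest vehicle library, at 3529.9. At 72 h the vehicle libraries held 2431, 2343 and 2239 normalised counts. AU2-94 gave 6073, 6103 and 6214 at 1 µM and 5417, 5844 and 6229 at 2 µM. Atirmociclib gave 5238, 5389.8 and 5523 at 1 µM and 4451, 4881 and 5183 at 2 µM, and ribociclib at 2 µM gave 6376, 5537 and 6652. The 15 treated libraries at 72 h ranged from 4451 to 6652, all above vehicle. Against vehicle the log2 fold change spanned 0.48 to 0.77 after 24 h, and at the later time 1.05 to 1.40. The pooled effect was 0.64 ± 0.072 (SE, adjusted p = 9.1e-07) at 24 h and 1.27 ± 0.051 (SE, adjusted p = 6.96e-13) at 72 h, that is 1.56-fold and 2.41-fold.

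KLK4 also rose in every treatment, but its effect was the larger at 24 h. Vehicle libraries held 2492, 2617 and 2683 normalised counts at 24 h. AU2-94 gave 3712, 4066 and 3809 at 1 µM and 4355, 4128 and 3964 at 2 µM. Atirmociclib gave 3924, 3641 and 3737 at 1 µM and 3533, 3631 and 3469.9 at 2 µM, and ribociclib at 2 µM gave 3641, 3687 and 3765. The lowest treated library, at 3469.9, was well above the highest vehicle library, at 2683. At 72 h the vehicle libraries held 2324, 2161 and 2165 normalised counts. AU2-94 gave 2869.5, 2608 and 2769 at 1 µM and 2693, 2768 and 2941 at 2 µM. Atirmociclib gave 2714, 2657 and 2756 at 1 µM and 2491, 2677 and 2680.1 at 2 µM, and ribociclib at 2 µM gave 2509, 2982 and 2779.7. Treated libraries at 72 h still lay above the 72 h vehicle, from 2491 to 2982, but all 15 lay below every treated library of 24 h, and several lay within the range of the 24 h vehicle. The log2 fold change spanned 0.45 to 0.67 after 24 h, and after 72 h 0.24 to 0.34, and the pooled effect was 0.55 ± 0.037 (SE, adjusted p = 9.91e-10) and 0.30 ± 0.047 (SE, adjusted p = 4.54e-05).

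KLK15 was measured at a far lower level, where counting error weighs more. At 24 h vehicle libraries held 53.2, 55.1 and 52.5 normalised counts. AU2-94 gave 72.4, 79.8 and 85.0 at 1 µM and 61.9, 70.4 and 72.7 at 2 µM. Atirmociclib gave 59.4, 86.2 and 59.0 at 1 µM and 83.0, 62.7 and 51.0 at 2 µM, and ribociclib at 2 µM gave 60.2, 65.8 and 60.7. The third library of atirmociclib at 2 µM lay below all 3 vehicle libraries, and 14 of 15 lay above them. At 72 h vehicle libraries held 56.5, 57.9 and 72.5 normalised counts. AU2-94 gave 112, 129 and 103 at 1 µM and 119.9, 93.7 and 142 at 2 µM. Atirmociclib gave 129, 108 and 86.2 at 1 µM and 79.3, 100.2 and 102 at 2 µM, and ribociclib at 2 µM gave 109.8, 103 and 95.1. Treated and vehicle libraries did not overlap at 72 h. The log2 fold change at 24 h was 0.55 in AU2-94 at 1 µM (adjusted p = 0.0388), and the other 4 treatments, at 0.21 to 0.34, did not pass (adjusted p = 0.196 to 0.438). All 5 treatments passed at 72 h, with 0.58 to 0.91. The pooled effect was 0.34 ± 0.15 (SE, adjusted p = 0.0803) at 24 h and 0.77 ± 0.14 (SE, adjusted p = 0.000224) at 72 h. At 24 h the pooled effect passed without the third atirmociclib 2 µM library (0.37, adjusted p = 0.0428). The 24 h call for AU2-94 at 1 µM was lost without any 1 of its 6 libraries, with an adjusted p from 0.0509 to 0.117. The 72 h call for atirmociclib at 2 µM (adjusted p = 0.0161) was lost without 4 of its 6 libraries in turn, at up to 0.0608.

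Across the 4 genes, AU2-94 at 1 µM raised all 4 at 24 h, against a background of 14.3% of all tested genes called higher in that comparison. The other 4 treatments raised 3 of 4 at 24 h, with KLK15 not passing, where 16% (AU2-94 2 µM), 16.6% (atirmociclib 1 µM), 18.6% (atirmociclib 2 µM) and 16.8% (ribociclib 2 µM) of all genes were called higher. At 72 h each treatment raised 4 of 4, against 15.4%, 14.2%, 20%, 20.9% and 15.5% of all genes in the same order. A log2 fold change of at least 1 was reached by KLK2 and KLK3 in all 5 treatments at 72 h, where 3.51%, 3.02%, 4.06%, 3.87% and 2.95% of all genes did so, and by no member in any treatment at 24 h, where 1.61%, 2.08%, 1.5%, 1.26% and 1.39% did. KLK2 in atirmociclib 2 µM at 72 h, at 1.05, fell under 1 without the third library of that group (0.996) and with equal totals (0.971). With treatments pooled, 3 members rose at 24 h and 4 at 72 h, against 20.7% and 21.7% of all genes. Complete separation of the 15 treated from the 3 vehicle libraries, found for 3 members at 24 h and 4 at 72 h, was shared by 11% and 9.96% of all tested genes. The 5 treatments of a time point share their vehicle libraries, so their agreement is not independent.

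**Figure D2:**
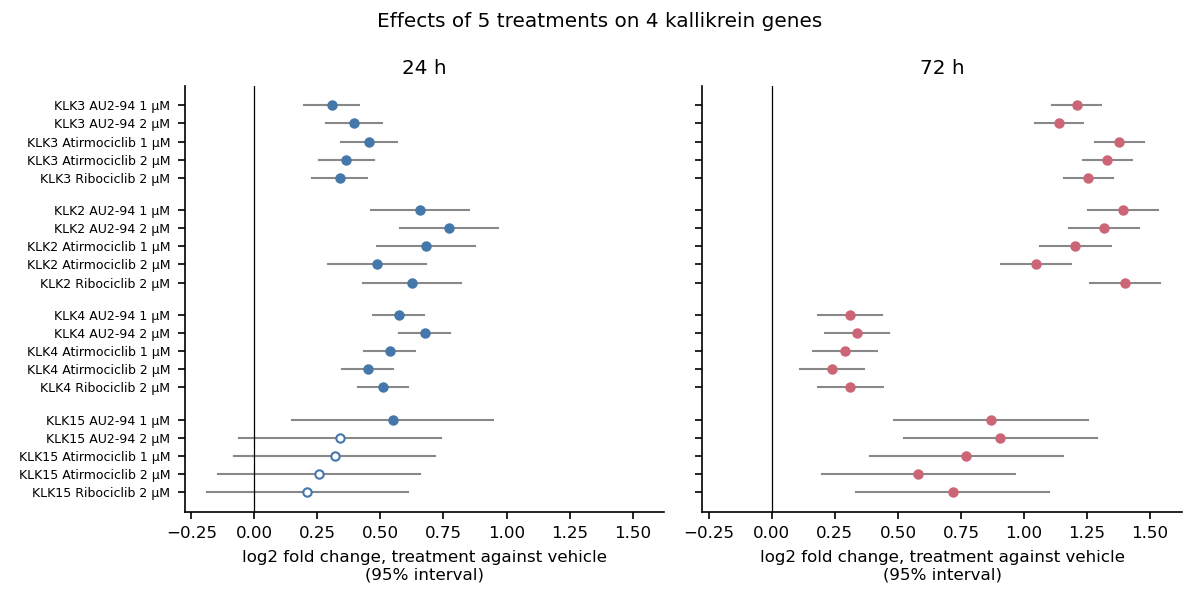
Log2 fold change of each treatment against the vehicle of its time point, with 95% intervals, for the 4 genes at 24 h (blue) and 72 h (red), where filled points passed an adjusted p of 0.05 and open points did not. KLK3 and KLK2 lie beyond 1 at 72 h only, KLK4 moves towards 0 from 24 h to 72 h, and KLK15 has the widest intervals.

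In the order of the 12 group means, KLK3 fell into 3 blocks. The 5 treated groups at 72 h came first, from 53365 ± 1848 in atirmociclib 1 µM to 45214 ± 2429.9 in AU2-94 2 µM (mean ± SD, n = 3), and each of these overlapped its neighbour in the order. The 5 treated groups at 24 h followed, from 32246 ± 624 to 29126 ± 1216, again with every neighbour overlapping. Vehicle at 24 h (23555 ± 1099) and at 72 h (20524 ± 632) were lowest, and the libraries of the 3 blocks did not overlap. KLK2 was less separated by time. Its highest mean was 6188 ± 581 in ribociclib at 72 h, its lowest treated mean 4454 ± 639.7 in atirmociclib 2 µM at 24 h, and AU2-94 2 µM at 24 h stood between treated groups of 72 h. KLK4 ran from 4149 ± 196 in AU2-94 2 µM at 24 h down to 2217 ± 92.8 in vehicle at 72 h, with the 5 treated 24 h groups on top and atirmociclib 2 µM at 72 h (2616 ± 108) overlapping vehicle at 24 h (2597 ± 96.6). For KLK15 the 72 h treated groups led, from 119 ± 24.2 to 93.7 ± 12.4, and vehicle at 72 h (62.3 ± 8.86) overlapped 24 h treated groups on both sides.

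Between time points the treatment effect on KLK4 changed in the direction opposite to that on KLK2 and KLK3. The effect on KLK3 at 72 h exceeded that at 24 h by 0.74 to 0.97 on the log2 scale over the 5 treatments, and that on KLK2 by 0.52 to 0.78, and all 10 of these values passed. The effect on KLK4 was smaller at 72 h in all 5, by -0.34 to -0.20, and passed in 4, with ribociclib at an adjusted p of 0.0635. For atirmociclib at 2 µM the KLK4 call (adjusted p = 0.0462) was lost with the replicate number as a block (adjusted p = 0.0551) and without 6 of its 12 libraries in turn, at up to 0.126. For atirmociclib at 1 µM it was lost without 3 of 12 in turn, at up to 0.0585, and ribociclib passed without its second library of 72 h (-0.26, adjusted p = 0.0135). KLK15 had positive values of 0.32 to 0.57, of which none passed in limma and 2 of 6, the pooled value included, had an unadjusted p under 0.05. Among all genes 10.1%, 9.26%, 11.3%, 11.7% and 10.5% were called higher in the 5 comparisons, and 11.5%, 9.28%, 10.6% and 9.96% lower in the 4 where KLK4 was. Pooled over treatments the change was 0.89 ± 0.056 (SE, adjusted p = 4.93e-13) for KLK3, 0.63 ± 0.093 (SE, adjusted p = 4e-06) for KLK2, -0.25 ± 0.059 (SE, adjusted p = 0.00143) for KLK4 and 0.43 ± 0.20 (SE, adjusted p = 0.103) for KLK15, against 14.9% of all genes called higher and 14.5% lower. When libraries were scaled to ACTB and GAPDH instead, the KLK4 change fell to -0.0086 while the median of all genes moved to 0.25, so KLK4 stayed below that median. ACTB and GAPDH themselves differed from vehicle, by -0.14 ± 0.024 (SE, adjusted p = 0.000146) and 0.32 ± 0.049 (SE, adjusted p = 4.37e-05) at 24 h, and ACTB by -0.27 ± 0.026 (SE, adjusted p = 9.52e-08) at 72 h.

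Without treatment, 3 of the 4 genes were lower at 72 h than at 24 h, against 3.64% of all genes called lower. KLK2 differed by -0.44 ± 0.085 (SE, adjusted p = 0.000959), KLK4 by -0.23 ± 0.054 (SE, adjusted p = 0.0064) and KLK3 by -0.20 ± 0.051 (SE, adjusted p = 0.0136). KLK15, at 0.20 ± 0.18 (SE, adjusted p = 0.566), did not pass. For KLK3 the call was lost without the second vehicle library of 24 h (-0.16, adjusted p = 0.100) or the third of 72 h (-0.17, adjusted p = 0.077). The lower vehicle level at 72 h enters each 72 h effect, as does the plating density that differed between the time points.

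Relative to KLK3 in the same library, the other genes shifted in different ways, and this ratio does not depend on the factor by which a library was scaled. The log2 ratio of KLK4 to KLK3 at 72 h lay between -4.34 and -3.96 in the 15 treated libraries and between -3.27 and -3.17 in the 3 vehicle libraries, with no overlap. The mean difference of -0.96 had p = 0.00245 in a two-sided exact permutation test, the smallest value that 816 arrangements allow, and an adjusted p of 0.0147 over 6 tests. As a share of the KLK3 count, KLK4 stood at 10.8% in vehicle at 72 h and at 5.07% to 6.20% in the treated groups. At 24 h the same ratio was 0.18 higher in treated cells (exact permutation test, adjusted p = 0.0368), with overlapping libraries. That call was lost without the first (0.16) or the second (0.14) vehicle library, at adjusted p = 0.132 and 0.154 in the exact permutation test. With permutation within replicate numbers the adjusted p was 0.0556. Both changes leave fewer arrangements, so the smallest p that the test allows is larger.

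KLK2 against KLK3 rose at 24 h, by 0.27 (exact permutation test, adjusted p = 0.0147), from 13.4% of the KLK3 count in vehicle to 14.6% to 17.4% in treated groups. The libraries overlapped, with the third atirmociclib 2 µM library, at a log2 ratio of -2.87, inside the vehicle range of -2.99 to -2.81. Without the first vehicle library the difference was 0.28, and the adjusted p of that exact permutation test, with fewer arrangements, was 0.0588. At 72 h the pooled difference was 0.0099 (adjusted p = 0.917 in the exact permutation test), but the compounds stood on opposite sides of vehicle. Both atirmociclib groups lay below it, at 10.1% and 9.36% of KLK3 against 11.4% in vehicle, and both AU2-94 groups above it, at 12.9% each. The log2 ratios of the 6 atirmociclib libraries (-3.44 to -3.30), the 3 vehicle libraries (-3.15 to -3.11) and the 6 AU2-94 libraries (-3.02 to -2.88) did not overlap, while ribociclib (-3.13 to -2.89) overlapped vehicle. This order was noticed in the values and was not tested as a ratio. The direct comparisons of compounds below use the same libraries and do not compare with vehicle, so they do not test it. KLK15 against KLK3 did not pass at 24 h (-0.031, exact permutation test, adjusted p = 0.917) and was -0.48 at 72 h (adjusted p = 0.0368 in the exact permutation test), a call that was lost without any 1 of the 3 vehicle libraries (adjusted p = 0.0662 to 0.221).

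**Figure D3:**
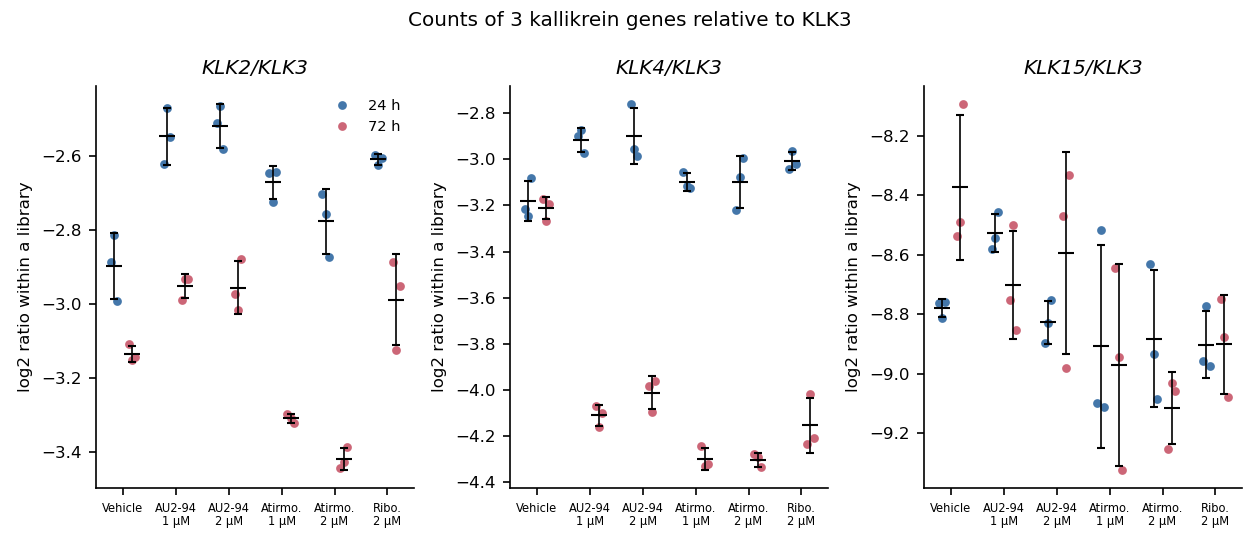
Log2 ratio of KLK2, KLK4 and KLK15 to KLK3 within each library, at 24 h (blue) and 72 h (red), with points for libraries and black bars for mean ± SD of 3. The KLK4 ratio at 72 h is at -3.27 or higher in vehicle and at -3.96 or lower in every treated library, and the KLK2 ratio at 72 h is lowest in the atirmociclib groups.

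At 72 h and at matched dose, KLK2 was lower and KLK3 higher in atirmociclib than in AU2-94, with KLK2 passing at 2 µM alone. At 2 µM and 72 h atirmociclib gave less KLK2 than AU2-94, -0.27 ± 0.066 (SE, adjusted p = 0.00695), and more KLK3, 0.19 ± 0.046 (SE, adjusted p = 0.00558). Of all genes 8.73% were called lower and 11.1% higher in that comparison. At 1 µM and 72 h KLK3 was higher in atirmociclib by 0.17 ± 0.046 (SE, adjusted p = 0.0273), against 4.53% of all genes, while KLK2 at -0.19 ± 0.066 (SE, adjusted p = 0.096) did not pass. Neither KLK3 difference passed when libraries were scaled to equal totals (0.087 at 2 µM, adjusted p = 0.191) or by quantiles (0.073 at 2 µM, adjusted p = 0.29), and the 1 µM call was also lost without 5 of the 6 libraries compared. At 24 h KLK4 was lower in atirmociclib than in AU2-94 at 2 µM, -0.23 ± 0.047 (SE, adjusted p = 0.00556), against 4.31% of all genes, and no member passed at 1 µM, where 4.64% of all genes passed in either direction.

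Compared with ribociclib at 2 µM and 72 h, atirmociclib gave less KLK2, -0.35 ± 0.066 (SE, adjusted p = 0.00174), against 4.35% of all genes called lower. No member differed past the threshold between them at 24 h, where 4.64% of all genes did. The KLK3 difference of that pair was 0.076 (95% interval -0.02 to 0.17). None of the 8 values of ribociclib against AU2-94 at 2 µM passed in limma, although 2 had an unadjusted p under 0.05, and few genes of the table passed (0.0372% at 24 h, 3.34% at 72 h). For KLK3 this difference was -0.057 (95% interval -0.17 to 0.053) at 24 h and 0.12 (95% interval 0.02 to 0.21) at 72 h, and for KLK2 it was -0.15 (95% interval -0.34 to 0.047) and 0.084 (95% interval -0.055 to 0.22). For KLK4 it was -0.17 (95% interval -0.26 to -0.065) at 24 h and -0.026 (95% interval -0.15 to 0.10) at 72 h. For KLK15 the intervals were wider, from -0.53 to 0.27 after 24 h, and after 72 h from -0.57 to 0.19. Over all 8 comparisons between compounds, 5 of 32 values passed, and these comparisons share libraries.

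Raising the dose from 1 to 2 µM moved no member past the threshold. None of 16 values passed in limma, and 2 had an unadjusted p under 0.05. Of all genes 0.409% passed for AU2-94 at 24 h and 0% at 72 h, and 0.0124% and 2.19% for atirmociclib. For AU2-94 the KLK3 difference of 2 against 1 µM was 0.089 (95% interval -0.021 to 0.20) at 24 h and -0.07 (95% interval -0.17 to 0.026) at 72 h. For atirmociclib the KLK2 difference was -0.19 (95% interval -0.39 to 0.00) at 24 h and -0.16 (95% interval -0.30 to -0.017) at 72 h, with adjusted p = 0.563 and 0.251. The third atirmociclib 2 µM library of 24 h was the lowest treated library of its time point for KLK2, KLK3 and KLK15, as well as for KLK4.

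Most other kallikreins of the cluster were at the edge of detection. Of 12 further genes, 11 were in the table, and 1 of them, KLKP1, a kallikrein pseudogene transcribed as a long non-coding RNA between KLK2 and KLK4, passed the filter at either time. KLKP1 ranged from 109.9 to 132 in the vehicle libraries and from 159 to 373 in the treated ones at 24 h. After 72 h it ranged from 111 to 119 in the vehicle libraries and from 124 to 213 in the treated ones. Its treated libraries lay above vehicle at both times, as did those of 11% and 9.96% of all tested genes. Among the single treatments, KLKP1 did not pass in ribociclib at 72 h (0.36). Its pooled effect was 1.03 ± 0.11 (SE, adjusted p = 4.22e-07) at 24 h and 0.57 ± 0.11 (SE, adjusted p = 0.000344) at 72 h, and the change between them, -0.46, passed the test. KLK1, the tissue kallikrein next to KLK15, reached 15.6 normalised counts in 1 treated library at 72 h but did not pass the filter, and the other 9 cluster kallikreins of the table were at 8.73 or lower in all libraries.

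Of the 22 other genes of the table within 250 kb of the members, 5 were tested at each time and 2 rose. At 24 h these were KLKP1 and CLEC11A, a secreted growth factor, at 0.60 ± 0.065 (SE, adjusted p = 7e-07). At 72 h they were KLKP1 and SYT3, a synaptotagmin, at 1.34 ± 0.37 (SE, adjusted p = 0.00654) and from a level of 7.60 normalised counts in vehicle. CLEC11A at 72 h was 0.043 ± 0.077 (SE, adjusted p = 0.687). CTU1, on the far side of the kallikreins, was 0.055 ± 0.1 (SE, adjusted p = 0.699) at 24 h and -0.17 ± 0.11 (SE, adjusted p = 0.245) at 72 h, and C19orf81 was -0.19 ± 0.22 (SE, adjusted p = 0.517) and -0.26 ± 0.23 (SE, adjusted p = 0.388), so neither passed. The counts of 2 of 5 stand beside 20.7% and 21.7% of all genes called higher.

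The prostate homeobox factor HOXB13 changed by 0.25 ± 0.031 (SE, adjusted p = 3.82e-06) at 24 h and 0.14 ± 0.026 (SE, adjusted p = 0.000228) at 72 h, beside 0.64 and 1.27 for KLK2. By contrast, the pioneer factor FOXA1, at 0.019 ± 0.035 (SE, adjusted p = 0.703) and -0.019 ± 0.032 (SE, adjusted p = 0.667), did not pass.

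Among other androgen-induced genes more rose than fell. Of 36 such genes, a list written from general knowledge without the kallikreins, 26 rose and 4 fell at 24 h and 21 rose and 3 fell at 72 h, with medians of 0.28 and 0.26 beside 0.0011 and -0.0028 for all genes tested. In the same comparisons, of all genes tested, 20.7% were called higher and 19.2% lower at 24 h, and 21.7% and 21.7% at 72 h. The largest pooled effects at 24 h were in NDRG1, a stress-responsive gene (1.88 ± 0.21 (SE, adjusted p = 9.4e-07)), the transcription factor MAF (1.55 ± 0.049 (SE, adjusted p = 2.73e-14)) and the surface protease TMPRSS2 (1.14 ± 0.052 (SE, adjusted p = 4.13e-12)). At 72 h they were in NDRG1 (2.22 ± 0.077 (SE, adjusted p = 1e-13)), MAF (2.16 ± 0.071 (SE, adjusted p = 5.21e-14)) and the ion channel TRPM8 (2.03 ± 0.10 (SE, adjusted p = 1.85e-11)). The smallest at 24 h were in HPGD (-0.54 ± 0.20 (SE, adjusted p = 0.0383)), INPP4B (-0.47 ± 0.099 (SE, adjusted p = 0.000833)) and IQGAP2 (-0.25 ± 0.098 (SE, adjusted p = 0.0477)), and at 72 h in TNFAIP8 (-0.30 ± 0.081 (SE, adjusted p = 0.00586)), DBI (-0.30 ± 0.059 (SE, adjusted p = 0.000487)) and IQGAP2, which did not pass (-0.18 ± 0.074 (SE, adjusted p = 0.0592)). FKBP5, a chaperone of steroid receptors, rose by 0.24 ± 0.037 (SE, adjusted p = 3.4e-05) at 24 h, while at 72 h it stood at 0.044 ± 0.076 (SE, adjusted p = 0.673).

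Set among these 36 genes, KLK2 and KLK3 moved up the order with time. At 24 h 9 of the 36 had a larger pooled effect than KLK2 and 15 a larger one than KLK3, and at 72 h 4 had a larger one than either. KLK4 went the other way, with 10 of 36 above it at 24 h and 17 at 72 h. Among all genes tested, the effect of KLK3 stood at the 87.3rd percentile at 24 h and the 97.5th at 72 h, and that of KLK4 at the 93.2nd and the 77.6th. In the pooled comparisons 20.7% of all genes were called higher and 19.2% lower at 24 h, and 21.7% of each at 72 h. Beside that, of 6 androgen-repressed genes 6 were tested at 24 h and 5 at 72 h, and at each time 2 rose and 2 fell. OPRK1, an opioid receptor gene, was among those that rose at 24 h (1.49 ± 0.19 (SE, adjusted p = 4.66e-06)), and BCHE, the gene of butyrylcholinesterase, among those that rose at 72 h (0.90 ± 0.078 (SE, adjusted p = 3.06e-08)). The 2 that fell at both times were UGT2B15 (-3.03 ± 0.072 (SE, adjusted p = 9.61e-16) at 24 h, -1.57 ± 0.06 (SE, adjusted p = 3.31e-13) at 72 h) and UGT2B17 (-1.88 ± 0.053 (SE, adjusted p = 6.85e-15) and -1.30 ± 0.048 (SE, adjusted p = 1.81e-13)), which encode enzymes that inactivate androgens by glucuronidation.

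Of the genes for proteins that kallikreins act on, and of those for proteins that inhibit them, a part did not pass the filter. The semenogelins SEMG1 and SEMG2, the physiological substrates of KLK3, did not pass the filter and were at 4.93 normalised counts or lower in all 36 libraries. Of 6 substrate genes 3 were tested at each time, of which 1 rose and 1 fell at 24 h and 1 rose and 2 fell at 72 h, beside 20.7% of all genes called higher and 19.2% lower at 24 h, and 21.7% of each at 72 h. Fibronectin, FN1, fell by 0.49 ± 0.038 (SE, adjusted p = 8.26e-09) at 24 h and 0.40 ± 0.05 (SE, adjusted p = 3.12e-06) at 72 h on the log2 scale. IGFBP3, a carrier of insulin-like growth factors that KLK3 can cleave, was at 0.28 ± 0.11 (SE, adjusted p = 0.0569) at 24 h and -1.53 ± 0.15 (SE, adjusted p = 9.58e-08) at 72 h. F2RL1, a protease-activated receptor, rose by 0.18 ± 0.048 (SE, adjusted p = 0.00599) and 0.16 ± 0.058 (SE, adjusted p = 0.0305). Of 5 inhibitor genes, 4 were in the table and 2 were tested, and SERPINB6, an intracellular serpin, rose at both times, by 0.34 ± 0.035 (SE, adjusted p = 2.97e-07) and 0.21 ± 0.041 (SE, adjusted p = 0.000319). SERPINA3, the serpin that binds prostate-specific antigen in serum, stood at 0.19 ± 0.44 (SE, adjusted p = 0.774) and -0.21 ± 0.49 (SE, adjusted p = 0.767), with no library above 15.9 normalised counts.

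Across the 12 group means, KLK2 and KLK3 varied together (Pearson r = 0.79 on the log2 scale), as did KLK3 and KLK15 (0.90) and KLK2 and KLK15 (0.69). For KLK4 the same correlation was 0.42 with KLK2, -0.16 with KLK3 and -0.29 with KLK15. The group means mix both time points, and within each time point KLK4 and KLK3 were both above vehicle in all 15 treated libraries. Deviations of the 36 libraries from their group means gave 0.86 for KLK2 and KLK3, measured in the same libraries, 0.34 for KLK3 and KLK4 and 0.13 for KLK3 and KLK15. The genes whose 12 group means were most like those of KLK3, among 11343 genes with a mean of at least 100, were PHF12 (r = 0.990), CAMKK2 (0.988), RALGDS (0.985), FLCN (0.977) and PCAT1 (0.972), where the 99th percentile of all genes was 0.922. For KLK2 they were OR51E1 (0.975), RIPOR2 (0.974) and TNFRSF19 (0.969), for KLK4 C11orf71 (0.976), WASHC2A (0.974) and C9orf64 (0.974), and for KLK15 NUMA1 (0.962), BTN3A3 (0.950) and RUNX2 (0.949). The pooled 72 h effect of the KLK3-like genes ranged from 0.58 in RALGDS to 1.62 in PCAT1. These correlations are over group means that share vehicle libraries and time points, and are given as a description.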

How the data were processed

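Total RNA libraries of LNCaP cells were sequenced as paired reads on an MGI DNBSEQ instrument. Per the labels, the authors ran nf-core/rnaseq with STAR 2.6.1d on GRCh38 (hg38) and used DESeq2. They deposited 1 table of normalised counts, a signal whose values are not whole reads (20.2% to 50.8% of values under 15 were whole multiples of 1 step, within 0.02 of a step), so no count model was run. The annotation release, gene counter and strand setting are not given in the sources used here.

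Groups came from the labels. Where 3 or more fitted libraries reached a normalised count of 10, the gene was tested in limma 3.58.1 (R 4.3.3, trend on) after taking log2(normalised count + 1), the 6 groups of a time point together or all 12 for changes over time, with Benjamini-Hochberg adjustment within each contrast over all genes. Ratios within libraries were tested with two-sided exact permutation tests (SciPy 1.17.1). Lists were described by counts and medians only. The steps were tested on simulated data.

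The members, lists and tests were chosen with earlier results of these data known. Genes named were the 4 members, tested genes of the cluster, neighbourhood, substrate and inhibitor lists, FOXA1, HOXB13, TMPRSS2 and FKBP5, the 3 androgen-induced genes at each end of the pooled effects, and the 5 (KLK3) or 3 (others) genes of most similar pattern. UGT2B15, UGT2B17, OPRK1, BCHE, KLK1, SEMG1, SEMG2, ACTB and GAPDH were added after their values were seen. A few genes of the fixed rule are not reported here. Positions and lengths came from GENCODE release 44 and promoter windows from RefSeq.

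The labels number the replicates, and the number was tried as a block that would pair libraries. For libraries sharing a number, deviations from the group means correlated on average at 0.0018 in the 24 h set (45 pairs, -0.09 to 0.11) and at -0.0022 in the 72 h set. Between libraries with different numbers the averages were -0.0009 and 0.0011. The fit without the block is the main one, and the block is an alternative. Alternatives covered the pseudocount, the filter, 3 normalisations, the block, the trend, the groups fitted, leaving out each library, and KLK2 and KLK3 summed. SDs describe the spread between biological replicates of 1 cell line. SEs are limma standard errors of a difference, based on a spread estimate shared by the groups fitted.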

Additional observations from a re-analysis of the deposited data

Results flagged for a closer look

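The effect of treatment on 3 of the genes differed between 24 h and 72 h by the interaction term of the limma fit over all 12 groups, adjusted over all genes. Values are the log2 effect at 72 h minus that at 24 h. For KLK3 they were 0.90 in AU2-94 1 µM, 0.74 in AU2-94 2 µM, 0.92 in atirmociclib 1 µM, 0.97 in atirmociclib 2 µM, 0.92 in ribociclib 2 µM and 0.89 with the treatments pooled. For KLK2 they were 0.74, 0.54, 0.52, 0.56 and 0.78 in the same order, and 0.63 pooled. For KLK4 they were -0.26 in AU2-94 1 µM, -0.34 in AU2-94 2 µM, -0.25 in atirmociclib 1 µM, -0.21 in atirmociclib 2 µM and -0.25 pooled. Time and plating density cannot be told apart in these differences. The groups have 3 libraries each, so single libraries were not screened as outliers.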

How the results depend on the processing

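The differences of KLK2, KLK3 and KLK4 kept their direction and passed in all 10 comparisons with vehicle under every alternative. KLK15 in AU2-94 1 µM at 24 h no longer passed without the filter (0.55, adjusted p = 0.0828), with ACTB and GAPDH scaling (0.44, adjusted p = 0.0768) or without any 1 of its libraries (0.50 to 0.61). Pooled KLK15 at 24 h passed with quantile normalisation (0.38) and no trend (0.34), and at 0.30 to 0.37 leaving out 1 library, where it passed without atirmociclib 2 µM replicate 3. KLK15 in atirmociclib 2 µM at 72 h lay at 0.52 to 0.70, not passing without its replicates 2 or 3 or vehicle replicates 1 or 2. KLK3 in vehicle over time lay at -0.22 to -0.16, not passing without replicate 2 of 24 h or replicate 3 of 72 h.

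For atirmociclib against AU2-94, with equal totals KLK2 passed at 2 µM 24 h (-0.33) and 1 µM 72 h (-0.26), KLK4 passed at 2 µM 72 h (-0.20), and KLK3 at 72 h did not pass at 1 µM (0.095) and 2 µM (0.087). With quantile normalisation KLK2 passed at 2 µM 24 h (-0.35) and 1 µM 72 h (-0.24), KLK3 at 72 h did not pass (0.087 and 0.073), and values near 0 turned sign at 24 h for KLK2 at 1 µM (-0.018) and KLK15 at 2 µM (0.096), and for KLK3 against ribociclib (-0.00019). With ACTB and GAPDH scaling KLK3 passed at 1 µM 24 h (0.20) and did not pass at 2 µM 72 h (0.15), and signs turned for KLK4 at 1 µM (0.014 at 24 h, 0.0065 at 72 h), KLK3 at 2 µM 24 h (0.0063) and KLK2 of ribociclib against AU2-94 at 72 h (-0.0043). KLK3 at 1 µM 72 h (0.17) also did not pass with no filter and no trend, and KLK2 there (-0.19) passed when only the compared groups were fitted.

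The replicate block changed 2 calls and no other, the KLK4 change of effect in atirmociclib 2 µM (-0.21, adjusted p = 0.0551) and the KLK4/KLK3 ratio at 24 h (0.18, adjusted p = 0.0556 in an exact permutation test). That KLK4 change (-0.21) also did not pass with no filter, no trend and only the compared groups. The KLK4 change in AU2-94 1 µM did not pass with equal totals (-0.19). With ACTB and GAPDH scaling KLK4 changes were 0.011, -0.045, 0.0031 and -0.00057 in AU2-94 1 and 2 µM and atirmociclib 1 and 2 µM and -0.0086 pooled, while KLK15 changes passed in AU2-94 2 µM (0.85), atirmociclib 1 µM (0.70), ribociclib (0.69) and pooled (0.67), and the median of all genes moved to 0.25. The cause of these shifts was not tested.

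Leaving out 1 library in turn, the lowest and highest values of atirmociclib against AU2-94 were, at 1 µM 24 h, -0.049 and 0.079 for KLK2 and -0.065 and 0.0020 for KLK4. At 2 µM 24 h they were -0.38 and -0.17 for KLK2, passing without atirmociclib replicate 1, -0.088 and 0.036 for KLK3 and -0.26 and 0.081 for KLK15, the positive ones without atirmociclib replicate 3. At 1 µM 72 h they were 0.14 and 0.19 for KLK3, passing without atirmociclib replicate 1 alone, -0.057 and 0.011 for KLK4 and -0.23 and 0.053 for KLK15. Against ribociclib at 24 h they were -0.031 and 0.094 for KLK3 and -0.13 and 0.21 for KLK15. Ribociclib against AU2-94 gave -0.084 and 0.041 for KLK4 at 72 h. Doses gave -0.24 and 0.12 for KLK15 in atirmociclib at 24 h, and -0.010 and 0.059 for KLK4 and -0.10 and 0.20 for KLK15 in AU2-94 at 72 h. KLK4 changes of effect spanned -0.27 to -0.21 in atirmociclib 1 µM, -0.23 to -0.17 in atirmociclib 2 µM and -0.26 to -0.13 in ribociclib. Ratios to KLK3 spanned 0.23 to 0.31 for KLK2 and 0.14 to 0.23 for KLK4 at 24 h, and -0.57 to -0.34 for KLK15 at 72 h.

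Of the list counts, androgen-induced genes that fell went from 4 to 1 at 24 h without the filter and by quantiles, and from 3 to 1 at 72 h with ACTB and GAPDH scaling. Rising substrates at 24 h were 2 by quantiles and 0 with that scaling. Without the filter 1 other kallikrein and 2 neighbours fell at 72 h. KLK15 had the lowest counts and the widest intervals of the 4 genes.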
